A study of Mus musculus with 30 samples.

Results

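Cdx1, Cdx2, Hnf4a, Hnf4g, Gata4, Gata6, Klf4 and Klf5 encode transcription factors that set or hold the identity of the intestinal epithelium, and their transcripts were followed in villi and crypts of mice that had lost Rb, or Rb together with Myc. The 8 genes were taken by name. A probe set, the group of probes that reads one transcript on the array, counted for a gene when the platform annotation gave it that single symbol, and each gene was read by its probe set of highest mean over the 30 arrays, called here the brightest. All 8 were among the 18194 genes with a probe set of their own, all 8 passed the filter on dim genes and so belonged to the 14548 genes tested, and together they had 20 probe sets.

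The study deleted Rb or Rb and Myc in the small intestine when mice were 2 months old, and tissue was taken 5 days later. Deletion used Ah-cre, a Cre recombinase under a promoter that drugs and other foreign compounds switch on. The inducing agent, and whether control mice carried Cre or received the agent, are not given in the sources used here. The 3 genotypes are control, Rb KO and Rb/Myc DKO, and each was profiled in villi, which carry the differentiated epithelium, and in crypts, which hold the dividing cells, with 5 arrays in each of the 6 groups. Nothing in the labels ties each replicate to an animal of its own, so a p-value here speaks for the spread among these arrays, and their number limits how fine a difference can be seen. Each of the 6 groups held arrays of both sexes, as read from the Xist transcript, so no group was a single animal. Both tissues are pieces of gut wall lining with several cell types, so fewer cells of a type and less RNA per cell cannot be told apart.

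CDX1 and CDX2 are homeobox proteins of the hindgut line, and CDX2 is required for intestinal rather than stomach-like or squamous character. HNF4A and HNF4G are nuclear receptors that bind the same DNA motif and switch on genes of lipid handling and the brush border in enterocytes, the absorptive cells of the villus. GATA4 and GATA6 are zinc finger factors, GATA4 being the one that gives the upper small intestine its regional character, while KLF4 is known from cells that have left the cycle and KLF5 from the dividing cells of the crypt.

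For 3 of the factors the promoter table held DNA next to a start of transcription. The 250 bases before each annotated start of Klf4, Hnf4a and Cdx2 come from RefSeq on build GRCm38.p6, and are shown because these are the members the promoter table held, Klf4 among them as a gene that changed. Capitals mark letters that match an E-box (CACGTG, the motif bound by MYC and related proteins), an E2F motif (TTTGGCGC, TTTCCCGC or TTTCGCGC) or a GC box (GGGCGG, bound by SP and KLF proteins), each searched on both strands, so that CCGCCC is a GC box on the other strand.
Klf4, chr4:55532476-55532725, minus strand: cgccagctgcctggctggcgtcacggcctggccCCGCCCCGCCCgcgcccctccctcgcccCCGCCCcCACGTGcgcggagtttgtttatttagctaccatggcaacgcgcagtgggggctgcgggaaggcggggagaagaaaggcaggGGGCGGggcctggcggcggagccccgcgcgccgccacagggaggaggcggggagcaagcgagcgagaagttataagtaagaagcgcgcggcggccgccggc
Hnf4a, upstream start, chr2:163506607-163506856, plus strand: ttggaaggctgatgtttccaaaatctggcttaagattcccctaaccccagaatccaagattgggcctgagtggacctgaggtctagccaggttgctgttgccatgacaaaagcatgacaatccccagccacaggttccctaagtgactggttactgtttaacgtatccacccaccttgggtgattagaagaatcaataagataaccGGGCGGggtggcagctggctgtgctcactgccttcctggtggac
Hnf4a, downstream start, chr2:163546905-163547154, plus strand: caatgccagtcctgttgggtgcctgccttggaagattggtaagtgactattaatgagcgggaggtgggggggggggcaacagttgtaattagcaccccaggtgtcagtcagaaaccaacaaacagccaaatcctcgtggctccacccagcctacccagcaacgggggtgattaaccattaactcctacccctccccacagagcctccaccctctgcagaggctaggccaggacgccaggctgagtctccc
Cdx2, chr5:147307250-147307499, minus strand: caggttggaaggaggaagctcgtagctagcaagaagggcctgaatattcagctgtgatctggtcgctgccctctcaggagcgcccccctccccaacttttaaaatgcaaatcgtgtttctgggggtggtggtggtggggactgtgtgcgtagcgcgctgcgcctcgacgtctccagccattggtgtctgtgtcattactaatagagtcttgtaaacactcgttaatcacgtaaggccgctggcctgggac
The Klf4 window held 1 E-box, which begins at base -182 counted from the start of transcription, and 4 GC boxes at -217, -212, -189 and -101, the first and second of which overlap by 1 base. The window before the upstream start of Hnf4a held 1 GC box at -44, and the other 2 windows held none of these motifs. No E2F motif was in any of the 4 windows. Among 32851 windows of the same length, 6.02% held an E-box, 32.7% a GC box and 1.53% an E2F motif. G and C made up 74% of the Klf4 window against a median of 52.4% over all windows. A match of letters is a description and not a bound site.

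The targeted genes were read first. Rb1 fell by 1.46 in Rb KO villi and by 1.68 in Rb KO crypts (log2, limma, adjusted p = 7.0e-06 and 2.7e-05), and Myc fell by 1.60 from Rb KO to DKO crypts (adjusted p = 1.9e-05). In villi the DKO and Rb KO levels of Myc were 6.76 ± 0.17 and 7.28 ± 0.21 (adjusted p = 0.147), so in villi the loss of Myc that the DKO label states was not shown by the array. Defining markers were present in the tissue each label names: in control villi the brush border genes Alpi and Lct stood at 14.49 ± 0.08 and 14.08 ± 0.13, and in control crypts the stem and Paneth cell markers Olfm4 and Lyz1 at 13.91 ± 0.17 and 15.03 ± 0.03 (mean ± SD, n = 5). These levels do not by themselves tell the tissues apart. Crypt markers were present in villi too, and the mean of 9 of them ranged over the control villi from -0.938 to 1.315 around its own mean. The array medians lay between 6.28 and 6.34 in villi and between 6.67 and 6.73 in crypts, and how the tissues were scaled to each other is not given in the sources used here, so no level in villi is set against one in crypts. In Rb KO villi all 23 of 23 measured genes for replicating DNA and entering S phase (the G1/S genes) rose, by a median of 2.57, and 19 of 19 of mitosis rose, by a median of 1.68.

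**Figure D1:**
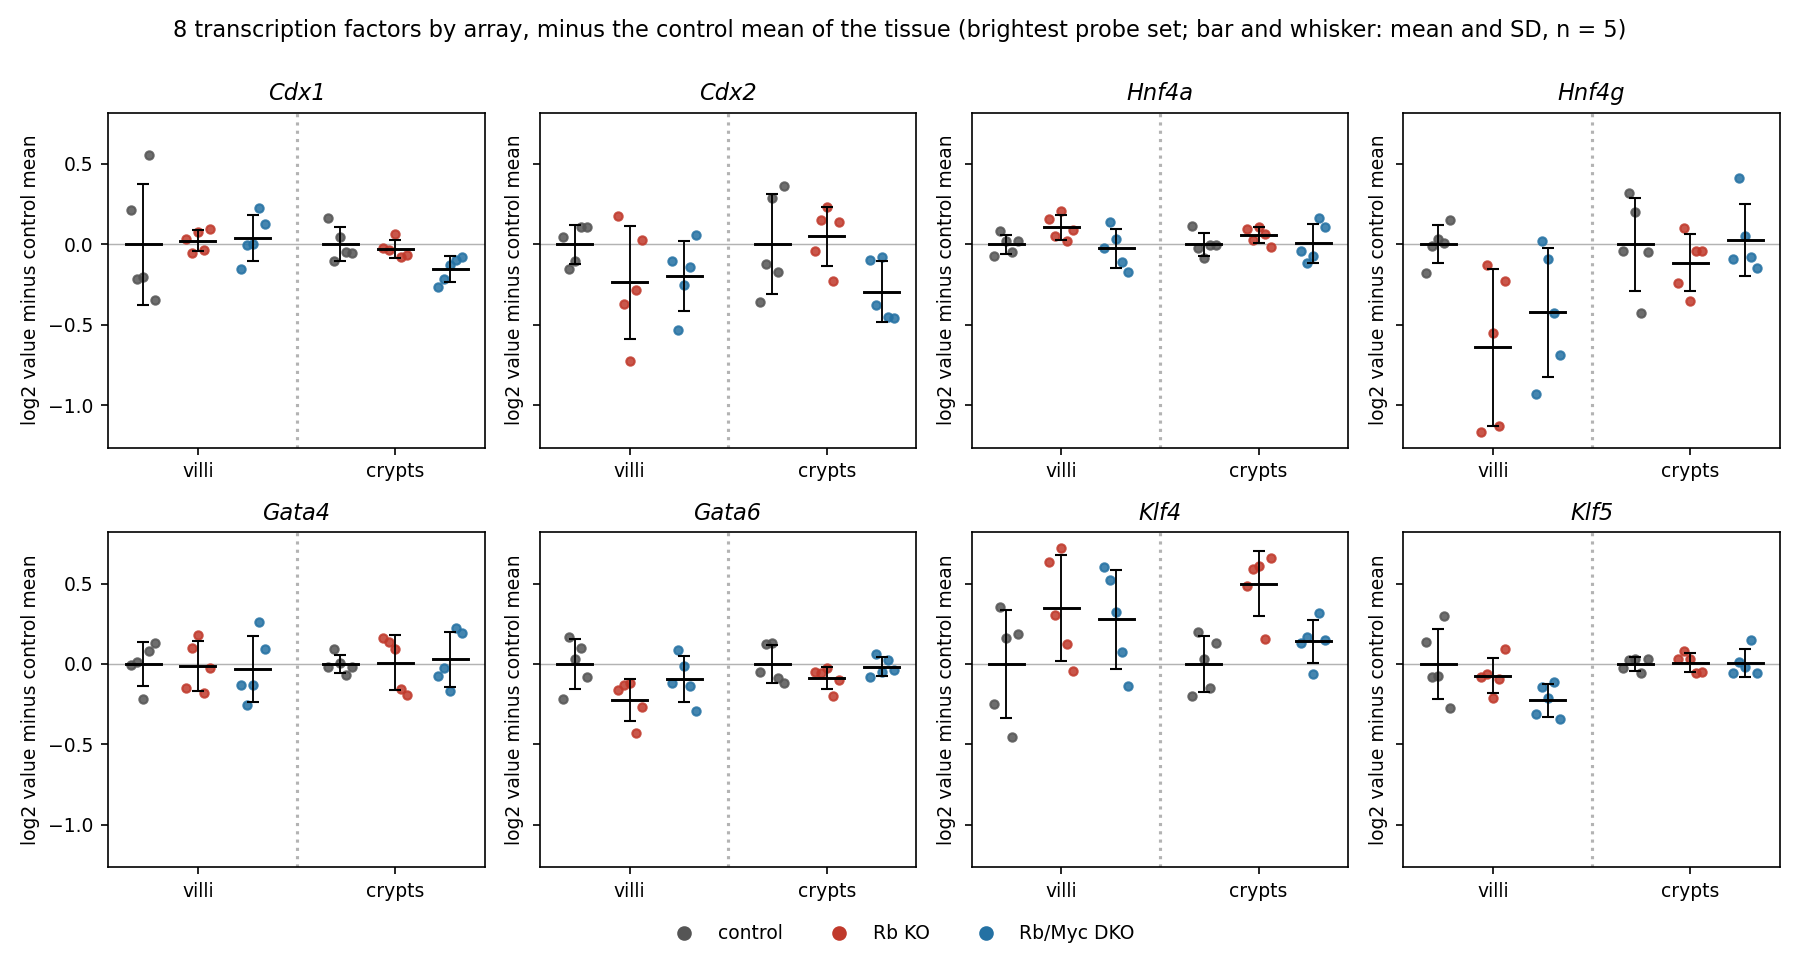
Each panel plots 1 of the 8 factors, with the log2 value of each array minus the mean of the 5 control arrays of the same tissue on the vertical axis. Points are arrays, bars and whiskers the mean and SD of 5 arrays. Hnf4g in villi and Klf4 in crypts show the largest shifts in Rb KO, while Hnf4a, Gata4 and Klf5 stay within 0.25 of the control mean in all Rb KO arrays.

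In villi that had lost Rb, 1 of the 8 factors passed the test: Hnf4g fell, and Cdx1, Cdx2, Hnf4a, Gata4, Gata6, Klf4 and Klf5 did not pass. Over all genes 30.5% passed in this comparison, and 15.8% passed as lower. The median difference of the 8 factors was -0.04, beside -0.02 over all genes, and the median size of the difference 0.16 beside 0.15. The 95% interval of the difference lay within 1.5-fold either way for 6 of the 8 genes, the exceptions being Hnf4g and Klf4, and within 2-fold for all but Hnf4g. The mean of the 8 factors on an array spanned 0.333 over the 15 villus arrays, and the mean of 23 G1/S genes spanned 2.945.

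**Figure D2:**
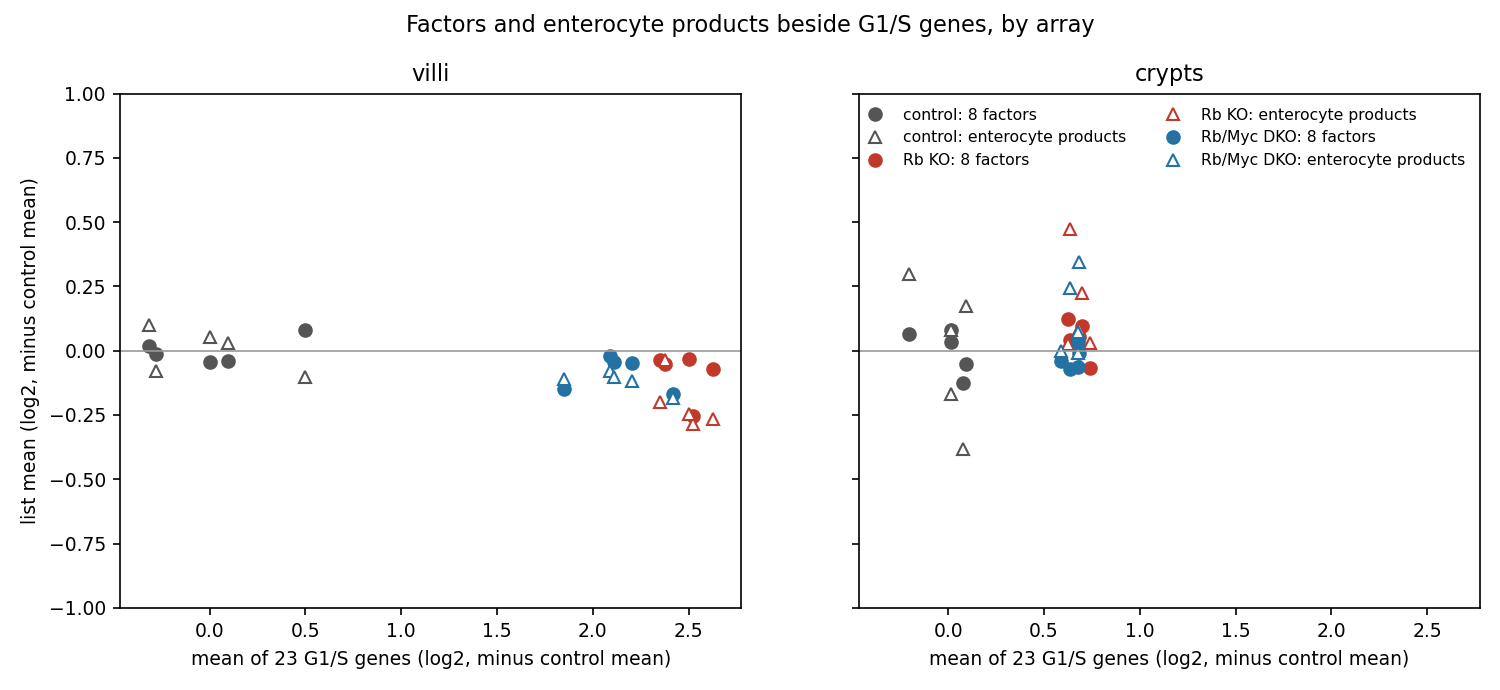
The horizontal axis gives the mean of 23 G1/S genes on an array and the vertical axis the mean of the 8 factors (circles) or of 43 enterocyte products (triangles), in log2 and each minus the control mean of the tissue. Rb KO and DKO villi lie between 1.849 and 2.627 on the G1/S axis, and between -0.253 and -0.022 for the 8 factors.

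Hnf4g, the nuclear receptor that shares its motif with HNF4A, read 11.37, 11.54, 11.58, 11.56 and 11.70 in the 5 control villus arrays. The Rb KO villi read 10.38, 11.42, 11.00, 10.42 and 11.32, and the DKO villi 10.62, 11.57, 11.46, 11.12 and 10.86. The control arrays lay close together, while Rb KO arrays 1 and 4 were far below them, arrays 3 and 5 below them by less, and array 2 within their range, so that the groups overlapped in that 1 array. Hnf4g fell by 0.64 ± 0.21 (SE) from 11.55 ± 0.12 to 10.91 ± 0.49 (95% interval -1.09 to -0.19, adjusted p = 0.0301). DKO villi stood at 11.13 ± 0.40, with differences of -0.42 from control (adjusted p = 0.182) and 0.22 from Rb KO (adjusted p = 0.562), neither of which passed. The call was lost in 5 of the 10 omissions of a single array: without control 2 (adjusted p = 0.0529), control 3 (0.0563), control 5 (0.0661), Rb KO 1 (0.0853) or Rb KO 4 (0.0845), with differences of -0.51 to -0.77 over all 10 omissions.

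The other Hnf4g probe sets gave 2 readings. The second brightest read 10.37, 10.32, 10.59, 10.52 and 10.61 in control villi and 9.57, 10.21, 9.91, 9.22 and 10.09 in Rb KO villi, with every Rb KO array below every control array, and fell by 0.68 ± 0.16 (adjusted p = 0.00517 over 31570 probe sets). It was lower in DKO than in control villi as well, by -0.52 (adjusted p = 0.0457), and its Rb KO difference kept its call without Rb KO 4 (-0.53, adjusted p = 0.0104). The third stood at 10.34 ± 0.12 in control and 10.17 ± 0.14 in Rb KO villi, a difference of -0.17 that did not pass (adjusted p = 0.208). Over the 15 villus arrays the brightest and the second Hnf4g probe sets correlated at 0.94, and the brightest and the third at 0.24, values that include the genotypes.

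Other readings moved with Hnf4g. The array carries control probe sets at the 3′ and 5′ ends of the Gapdh transcript, and their difference, which grows when the RNA is shorter or its copying less complete, was -0.139 ± 0.041 in the control villi, -0.051 ± 0.044 in the Rb KO group and -0.095 ± 0.017 in the DKO group. Single arrays ran from -0.211 to -0.112 in control and from -0.09 to 0.012 in Rb KO villi, without overlap. As a covariate this reading therefore cannot be separated from genotype in that comparison. With it in the fit, Hnf4g was -0.46 in Rb KO villi (adjusted p = 0.326). Markers of lymphocytes were lower in Rb KO villi, 7 of 9 past the threshold, beside 15.8% of all genes that fell. Their mean was -0.554 ± 0.230 in Rb KO villi, against 0 ± 0.223 in control and 0.033 ± 0.118 in DKO villi. The mean of the crypt markers was 0.451 ± 0.473 in Rb KO and 0.719 ± 0.457 in DKO villi against 0 ± 0.929 in control, with 0 of 9 past the threshold in Rb KO villi, and with it as a covariate Hnf4g was -0.56 (adjusted p = 0.0609). The part of each in the result was not tested beyond these covariates.

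Hnf4a, the better known of the nuclear receptor pair, read 12.85, 13.00, 12.94, 12.87 and 12.94 in control villi and 13.08, 12.97, 13.13, 12.94 and 13.01 in Rb KO villi by its brightest probe set. The groups overlapped within less than 0.3, with a difference of 0.10 ± 0.06 (95% interval -0.03 to 0.24, adjusted p = 0.247). The dimmest of its 4 probe sets went the other way, from a control mean of 9.93 ± 0.16 to 9.28 ± 0.60 with Rb lost, and fell by 0.65 ± 0.22 (adjusted p = 0.0355 over all probe sets). That fall was -0.44 without Rb KO 4 and no longer passed (adjusted p = 0.0824), and its arrays followed the brightest Hnf4g probe set with a correlation of 0.86 over the 15 villus arrays, where the brightest Hnf4a probe set gave -0.01. The same dimmest probe set correlated at -0.61 with the Gapdh 3′ minus 5′ reading and at -0.65 with that of Actb. Whether the Hnf4a probe sets read different transcripts from the upstream and downstream starts shown above is not known here.

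Cdx2, the homeobox factor of intestinal character, read 10.19, 9.99, 10.04, 10.25 and 10.25 in control villi and 10.32, 9.77, 9.42, 9.86 and 10.17 in Rb KO villi. Rb KO arrays lay on both sides of the control range, and the difference of -0.24 ± 0.14 did not pass (95% interval -0.54 to 0.07, adjusted p = 0.24). Its second probe set fell by 0.63 ± 0.18, from 9.41 ± 0.17 to 8.78 ± 0.46 (adjusted p = 0.0131), and by 0.55 without Rb KO 4 (adjusted p = 0.038). Adding the Gapdh reading to the fit left this second probe set at -0.71, which did not pass (adjusted p = 0.0789). Cdx1 stood at 8.80 ± 0.37 in the control group, 8.82 ± 0.07 in the Rb KO group and 8.83 ± 0.15 in the DKO group (villi), with differences of 0.02 and 0.04 from control (adjusted p = 0.936 and 0.878). The wide spread of control villi in Cdx1 came from arrays 1 and 4, at 9.01 and 9.35, and Cdx1 correlated at 0.74 with the mean of the crypt markers over the 15 villus arrays. Without control arrays 1 and 4, which had the highest crypt marker means of the control villi, Cdx1 was 0.27 higher in Rb KO (adjusted p = 0.0214) and 0.29 higher in DKO villi (adjusted p = 0.0267). Those arrays were also the highest controls in Cdx1 and the only female ones by Xist. In each comparison this was the only 1 of 30 alternatives to call Cdx1. The crypt marker mean as a covariate did not call it.

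Gata4, the regional factor of the upper small intestine, stood at 9.96 ± 0.13 in the control group, 9.94 ± 0.16 in the Rb KO group and 9.92 ± 0.21 in the DKO group (villi). The difference of Rb KO from control was -0.01 ± 0.10, with a 95% interval from -0.23 to 0.20 (adjusted p = 0.936). Its second probe set stood at 8.91 ± 0.21 in control and 8.37 ± 0.58 in Rb KO villi, with Rb KO 4 the lowest at 7.41, and did not pass (adjusted p = 0.0728). Of 13 genes that mark the length of the small intestine, 2 fell in Rb KO villi, Cubn and Cyp27a1, a share near the 15.8% of all genes that fell. Gata6 read 10.72, 11.11, 10.97, 11.04 and 10.86 in control villi and 10.78, 10.81, 10.82, 10.51 and 10.67 in Rb KO villi. The Rb KO arrays lay in the lower part of the control range and below it, and the difference was -0.22 ± 0.09 (adjusted p = 0.0712). The second Gata6 probe set fell by 0.46 ± 0.13 (adjusted p = 0.0122), and by 0.33 without Rb KO 4 (adjusted p = 0.0189), and adding the Gapdh reading to the fit gave -0.38 (adjusted p = 0.186). The third stood at 8.45 ± 0.05 and 8.39 ± 0.14 (adjusted p = 0.6).

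Klf4, the factor known from cells that have left the cycle, read 11.85, 12.45, 12.26, 11.64 and 12.28 in control villi, 12.73, 12.40, 12.82, 12.22 and 12.05 in Rb KO villi and 12.70, 12.62, 12.42, 12.17 and 11.96 in DKO villi. The 3 groups overlapped over most of their range. The differences from control were 0.35 ± 0.18 in Rb KO (adjusted p = 0.177) and 0.28 ± 0.18 in DKO villi (adjusted p = 0.319). With the mean of the crypt markers as a covariate Klf4 was 0.52 higher in Rb KO (adjusted p = 0.00605) and 0.55 higher in DKO villi (adjusted p = 0.0116). Adding the Gapdh reading to the fit instead gave -0.01 for the brightest Klf4 probe set in Rb KO villi and -0.05 for the second. Neither passed (adjusted p = 0.975 and 0.913 over all probe sets). That reading did not overlap between control and Rb KO villi, so it cannot be told from genotype there. Klf5, the factor of dividing crypt cells, stood at 12.61 ± 0.22 in the control group, 12.54 ± 0.11 in the Rb KO group and 12.39 ± 0.10 in the DKO group (villi). Its Rb KO difference was -0.07 ± 0.09 (95% interval -0.27 to 0.13, adjusted p = 0.621), in villi where the G1/S genes had risen.

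**Figure D3:**
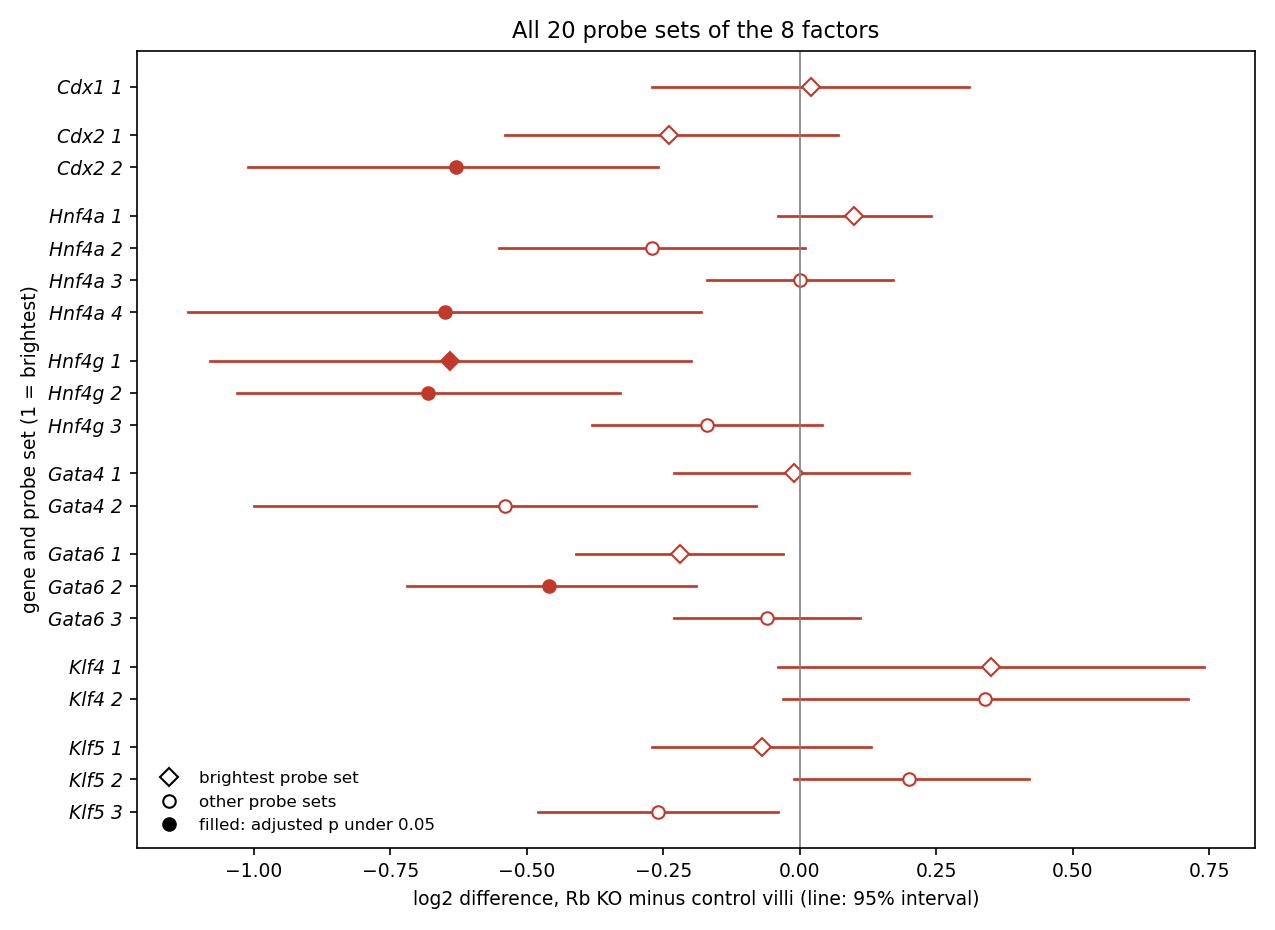
Each row is 1 of the 20 probe sets of the 8 factors, numbered within a gene from the brightest, and the horizontal axis gives its log2 difference between Rb KO and control villi with the 95% interval. Filled points passed an adjusted p of 0.05. The 5 filled points, in Cdx2, Hnf4a, Hnf4g and Gata6, are all left of 0, and each of these 4 genes also has an unfilled probe set nearer to 0 than -0.25.

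Over all 20 probe sets, 5 fell and 0 rose in Rb KO villi, where 29.9% of 31570 probe sets passed in either direction. Of the 20, 14 were below 0 and 5 above 0, with a median of -0.20. The 5 were the second probe set of Cdx2, the dimmest of Hnf4a, both of the brighter ones of Hnf4g and the second of Gata6. Rb KO 4 was the lowest array of its group in 10 of the 20 probe sets in villi and in 13 of 20 in crypts, where villi and crypts of the same number are taken to be from 1 animal. Without Rb KO 4, 3 of the 5 kept their call, and with the Gapdh 3′ minus 5′ reading as a covariate 0 of the 5 did. That reading did not overlap between control and Rb KO villi, so a lost call cannot tell it from genotype. With that covariate all 5 stayed below 0: Cdx2 was -0.71 against -0.63 without it, the second Hnf4g probe set -0.62 against -0.68, Gata6 -0.38 against -0.46, the brightest Hnf4g probe set -0.46 against -0.64 and the dimmest of Hnf4a -0.36 against -0.65.

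Between DKO and Rb KO villi 0 of the 8 factors passed by the brightest probe sets with limma, where 7.83% of all genes did. At an unadjusted p under 0.05 the count was also 0, beside 24.4% of all genes. The 95% interval lay within 1.5-fold for 7 of 8 genes, the exception being Hnf4g at -0.23 to 0.66. Of the 20 probe sets 1 fell (7.26% of all probe sets passed): the second of Klf5, at 10.32, 10.51, 10.39, 10.35 and 10.50 in Rb KO and 9.70, 10.02, 9.79, 9.86 and 9.86 in DKO villi. No DKO array reached the lowest Rb KO array, and the fall was 0.57 ± 0.10 (adjusted p = 0.00459), while the brightest Klf5 probe set differed by -0.15 ± 0.09 (adjusted p = 0.33).

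Between DKO and control villi, a comparison that shares its arrays with both above, 0 of the 8 factors passed (17.1% of all genes did). At an unadjusted p under 0.05 the count was 1, Klf5 at -0.23 ± 0.09 (adjusted p = 0.117), beside 31.2% of all genes. Of the 20 probe sets 3 fell, beside 14.2% of all probe sets in either direction: the second of Hnf4g, and the second and the third of Klf5, by 0.37 (adjusted p = 0.0235) and 0.35 (adjusted p = 0.0344). All 3 probe sets of Klf5 were thus below control in DKO villi, the brightest without passing.

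**Figure D4:**
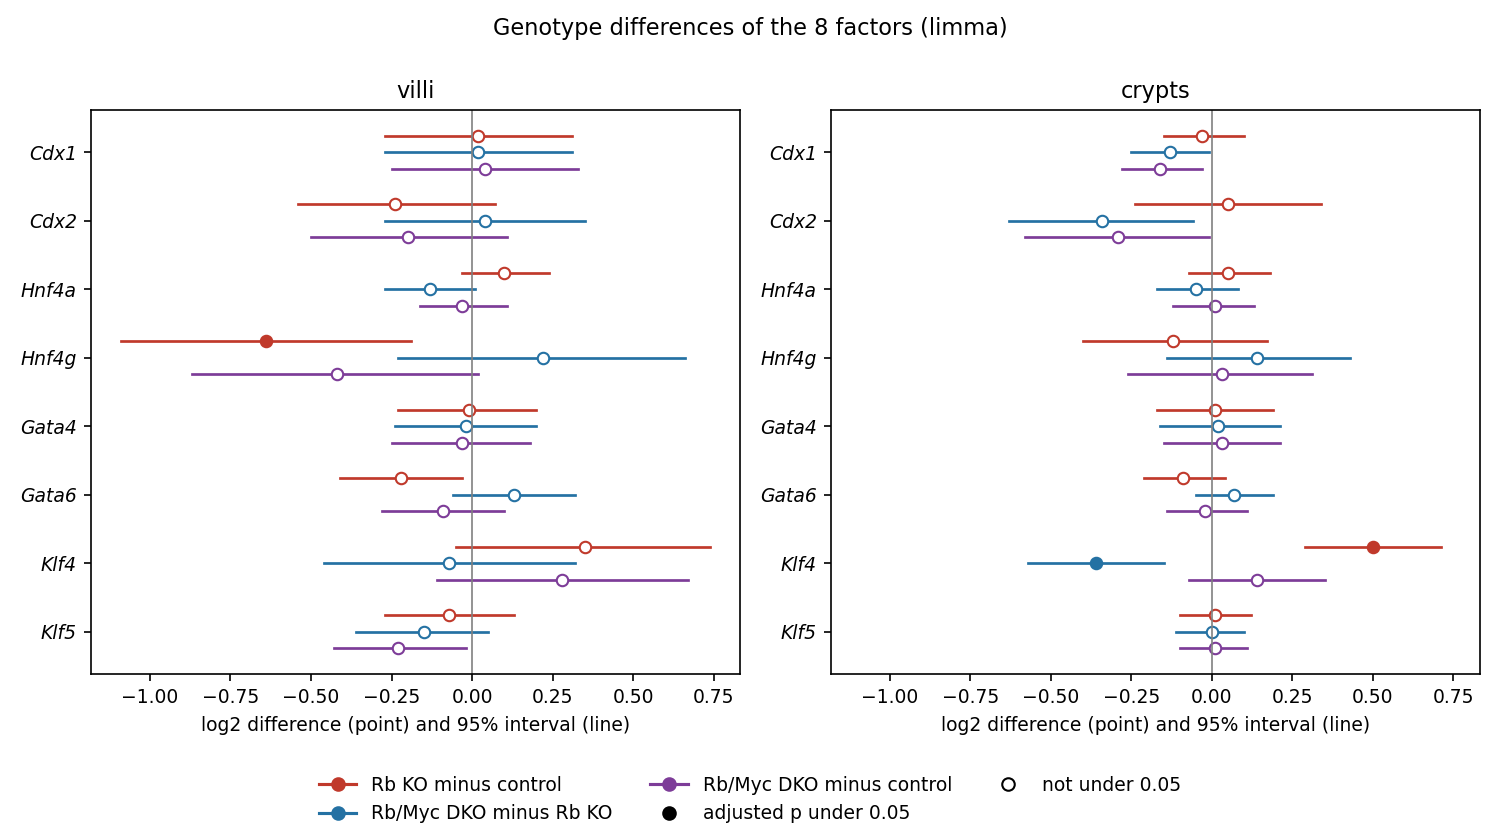
The panels give, for villi and crypts, the log2 difference of each factor in the 3 genotype comparisons with its 95% interval. Filled points have an adjusted p under 0.05 over 14548 genes, namely Hnf4g in Rb KO villi and Klf4 in Rb KO crypts and between DKO and Rb KO crypts.

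In crypts, where cells divide in control mice too, Klf4 was the member that changed. It rose with loss of Rb and was lower again when Myc was lost as well, and the other 7 factors did not pass in any of the 3 comparisons. Between Rb KO and control crypts 10.3% of all genes passed, and 7.33% as higher. The mean of 23 G1/S genes was 0.678 ± 0.047 above control in Rb KO crypts, and 0.652 ± 0.041 above it in DKO crypts.

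Klf4 read 9.83, 10.23, 10.06, 9.88 and 10.16 in control crypts, 10.52, 10.62, 10.64, 10.19 and 10.69 in Rb KO crypts. The DKO crypts read 10.16, 10.20, 9.97, 10.35 and 10.18. All Rb KO arrays but number 4 lay above all arrays of the other 2 groups, and number 4 lay within both. Klf4 rose by 0.50 ± 0.10 (SE), from 10.03 ± 0.17 to 10.53 ± 0.20 (95% interval 0.29 to 0.71, 1.41-fold, adjusted p = 0.00467). The difference lay between 0.45 and 0.59 when any 1 array was left out, and passed each time (adjusted p up to 0.0161). Its second probe set read 9.37, 9.71, 9.38, 9.61 and 9.36 in control and 10.07, 10.06, 10.14, 9.81 and 10.24 in Rb KO crypts, with no overlap, and rose by 0.58 ± 0.09 (adjusted p = 0.00152 over all probe sets).

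From Rb KO to DKO crypts Klf4 fell by 0.36 ± 0.10, to 10.17 ± 0.14 (95% interval -0.57 to -0.15, adjusted p = 0.0285), where 12.4% of all genes passed and 7.22% as lower. The second probe set read 9.59, 9.73, 9.35, 9.68 and 9.48 in DKO crypts, all below the Rb KO arrays, and fell by 0.50 ± 0.09 (adjusted p = 0.00349). The call of the brightest probe set was lost without Rb KO 1, 2, 3 or 5 or DKO 1 or 3, with adjusted p from 0.0545 to 0.0737 and differences from -0.31 to -0.36. It was also lost with quantile normalization (-0.32, adjusted p = 0.0588), with the Gapdh reading in the fit (-0.33, adjusted p = 0.077) and with the crypt marker mean as a covariate (-0.34, adjusted p = 0.123), differences close to the -0.36 without them. That mean was -0.213 ± 0.177 in Rb KO and 0.086 ± 0.145 in DKO crypts, and 3 of 9 crypt markers rose between them. DKO and control crypts differed by 0.14 ± 0.10 (95% interval -0.07 to 0.35, adjusted p = 0.379). Over the 20 probe sets the 2 of Klf4 rose in Rb KO crypts and fell from there to DKO crypts, beside 7.25% and 9.75% of all probe sets that passed, and 0 of 20 passed between DKO and control crypts (15.9% of all probe sets did).

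Immediate early genes, which handling of tissue is known to switch on, moved with Klf4 in part. Of 11 tested, 3 rose in Rb KO crypts, beside 7.33% of all genes that passed as higher. Dusp1 rose by 1.20 (adjusted p = 5.2e-04), Jun by 0.43 (adjusted p = 0.0309) and Atf3 by 0.33 (adjusted p = 0.0492). The mean of all 13 genes of this list with a probe set, those below the filter on dim genes included, was 0 ± 0.085 in the control group (crypts). It was 0.233 ± 0.042 in the Rb KO group and 0.227 ± 0.145 in the DKO group. The DKO arrays were split in this mean. Arrays 1 and 5, at 0.075 and 0.064, lay within the control range, whose upper end was 0.079. Arrays 2, 3 and 4, at 0.313, 0.347 and 0.338, lay above the highest Rb KO array, which read 0.289. With this mean as a covariate the Klf4 difference of Rb KO from control was 0.48 and did not pass (adjusted p = 0.135). The highest control crypt array, at 0.079, was below the lowest Rb KO array, at 0.181. The lost call therefore cannot separate this mean from genotype. From Rb KO to DKO crypts 2 of the 11 tested fell, Junb and Jun, beside 7.22% of all genes that passed as lower. Jun, which like Klf4 had risen in Rb KO crypts, fell by 0.43 (adjusted p = 0.0274). Their part in the result was not tested further.

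**Figure D5:**
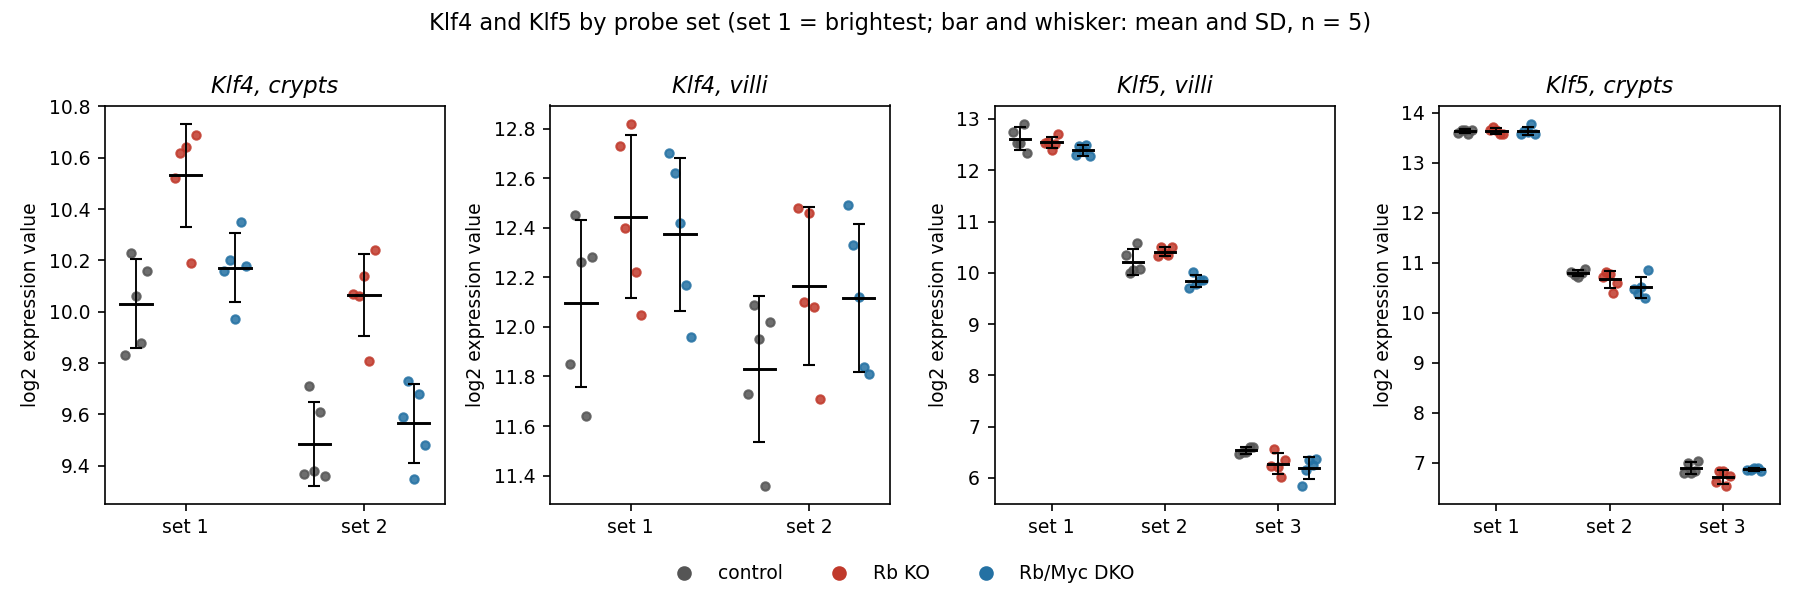
Klf4 and Klf5 are plotted by probe set, with the log2 value of each array, the mean and the SD of 5 arrays for each genotype in crypts and villi. In crypts both Klf4 probe sets are highest in Rb KO, and in villi the second Klf5 probe set is lowest in DKO.

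The cell cycle genes often named beside KLF4 and KLF5 were read from a list of 8. Cdkn1a, the inhibitor p21 and a known target of KLF4, rose by 1.06 ± 0.13 in Rb KO crypts, where Klf4 rose (adjusted p = 7.7e-05), and by 0.87 ± 0.10 in Rb KO villi (adjusted p = 8.8e-06), where Klf4 did not pass. In DKO crypts Klf4 was lower than in Rb KO, and Cdkn1a differed by -0.07 ± 0.13 (adjusted p = 0.793). Ccnd1, the cyclin D1 gene, fell by 0.45 ± 0.12 in Rb KO crypts (adjusted p = 0.0206) and by another 0.92 ± 0.12 in DKO crypts (adjusted p = 1.2e-04). Of the 8, 4 rose and 3 fell in Rb KO crypts, where 10.3% of all genes passed. In Rb KO villi, where 30.5% of all genes passed, 3 rose and 1 fell. Ccne1 and Cdk1 of this list, called in both, also belong to the G1/S and the mitosis genes read above.

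The CDX pair in crypts read lowest in DKO. Cdx1 stood at 11.00 ± 0.11 in control and read 10.97, 10.96, 11.06, 10.92 and 10.93 in Rb KO and 10.73, 10.78, 10.87, 10.90 and 10.92 in DKO crypts. The highest DKO array met the lowest Rb KO array at 2 decimals, the arrays being apart at the deposited precision, and 11.7% of all genes were apart in this comparison. The difference of -0.13 ± 0.06 did not pass over all genes (adjusted p = 0.16). The exact permutation test of the gene alone gave p = 0.00794, the smallest that 5 against 5 arrays allow, unadjusted. Cdx2 read 10.86, 11.05, 11.13, 10.67 and 11.04 in Rb KO crypts and stood at 10.61 ± 0.19 in DKO crypts, a difference of -0.34 ± 0.13 (95% interval -0.63 to -0.06, adjusted p = 0.112). From control, DKO crypts differed by -0.16 ± 0.06 in Cdx1 (adjusted p = 0.0692) and -0.29 ± 0.13 in Cdx2 (adjusted p = 0.147), and 20.2% of all genes passed in that comparison, with 0 of the 8 factors among them. At an unadjusted p under 0.05 Cdx1 and Cdx2 made 2 of 8 there, beside 31.8% of all genes.

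By their brightest probe sets the remaining factors kept intervals within 1.5-fold in crypts. Hnf4a stood at 13.29 ± 0.07 in the control group, 13.34 ± 0.05 in the Rb KO group and 13.29 ± 0.12 in the DKO group (crypts). Hnf4g stood at 10.82 ± 0.29, 10.70 ± 0.18 and 10.85 ± 0.23, with a difference of -0.12 ± 0.13 between Rb KO and control (adjusted p = 0.662). Gata4 differed by 0.01 ± 0.09 and Gata6 by -0.09 ± 0.06 between Rb KO and control (adjusted p = 0.971 and 0.407). Klf5 differed by 0.01 ± 0.05, with a 95% interval from -0.10 to 0.12 (adjusted p = 0.935). The interval lay within 1.5-fold for 7 of 8 factors in Rb KO crypts (not Klf4), for 7 of 8 between DKO and Rb KO crypts (not Cdx2) and for 8 of 8 between DKO and control crypts. In the last comparison, the third Hnf4a probe set was -0.33 (95% interval -0.58 to -0.08, adjusted p = 0.0713). The second of Klf5 was -0.29 (95% interval -0.50 to -0.09, adjusted p = 0.0513), and neither passed. Of all 20 probe sets 11 were below 0 and 9 above 0 there.

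The difference between tissues was tested as an interaction over the 30 arrays. The fit treated all arrays as separate, though the villus and crypt arrays of 1 number were taken as 1 animal. The SE and intervals below are from that fit, and with the animal as a random block 0 factors passed either interaction. For loss of Rb it passed for 0 of the 8 factors (13.7% of all genes passed), and for DKO against Rb KO for 0 of 8 (3.4% of all genes passed). At an unadjusted p under 0.05 both counts were also 0, beside 27.1% and 20% of all genes. The effect of Rb loss on Hnf4g was more negative in villi than in crypts by -0.52 ± 0.26 (95% interval -1.06 to 0.01, adjusted p = 0.197), and that on Klf4 by -0.15 ± 0.22 (95% interval -0.60 to 0.30, adjusted p = 0.714). Hnf4g passed in villi and Klf4 in crypts, and for neither was a difference between the tissues shown.

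Other transcription factors of the epithelium stood beside the 8. Of 37 measured, 3 rose and 7 fell in Rb KO villi, with a median of -0.01, a share near the 30.5% of all genes that passed. Mlxipl, a sugar-sensing factor also called ChREBP, rose by 0.69 ± 0.13 (adjusted p = 7.9e-04), and Esrra, a nuclear receptor of mitochondrial genes, fell by 0.25 ± 0.05 (adjusted p = 0.00211). In crypts 1 of 37 passed with loss of Rb, beside 10.3% of all genes: Ehf, which fell by 0.31 (adjusted p = 0.0111). From Rb KO to DKO crypts 1 rose and 5 fell, where 12.4% of all genes passed. Vdr, the vitamin D receptor, fell by 0.53 (adjusted p = 0.00178), Klf6 by 0.46 (adjusted p = 0.00288) and Smad4 by 0.32 (adjusted p = 0.00533). Other KLF factors did not pass in that comparison: Klf5 was 0.00, Klf3 0.02 and Klf15 0.11 (adjusted p = 0.975, 0.907 and 0.567).

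Products of mature enterocytes, among them known targets of the 8 factors, were read from a list of 43. In Rb KO villi 1 rose and 14 fell, with a median of -0.09, and the list mean was -0.207 ± 0.101 against 0 ± 0.088 in control, beside 30.5% of all genes that passed and 15.8% that fell. The Gapdh reading and the lymphocyte markers given above moved in the same arrays, and their part in this count was not tested. Ush1c, a link protein of the brush border, fell by 0.63 ± 0.10 (adjusted p = 1.4e-04), Cubn, a receptor of vitamin uptake, by 2.34 ± 0.36 (adjusted p = 1.5e-04), Ace by 1.09 (adjusted p = 3.0e-04) and the peptide transporter Slc15a1 by 0.64 (adjusted p = 4.9e-04). In Rb KO crypts 4 rose and 1 fell, where 10.3% of all genes passed. Between DKO and Rb KO villi 0 of 43 passed, as did 0 of the 37 other factors, beside 7.83% of all genes.

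By Pearson correlation over the 15 villus and over the 15 crypt arrays, ranked by the lower of the 2 values, the genes most like Hnf4g were Net1 (0.85 and 0.78), Myo1a (0.82 and 0.78) and Frmd8 (0.76 and 0.80). Myo1a encodes a brush border myosin and is in the list of enterocyte products. Those most like Klf4 were Enpp3 (0.80 and 0.91), Gipc2 (0.81 and 0.79) and Zfpm1 (0.76 and 0.76). Those most like Cdx1 were Rsl24d1, Rps29 and Niban2, and those most like Gata6 were Ifngr2, Uap1l1 and Pcmtd1. The arrays share their genotype groups, tissue pieces and normalization, so these values describe likeness in these arrays.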

How the data were processed

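RNA of villi and crypts was read on 30 Affymetrix mouse arrays, 5 for each of 3 genotypes in each tissue. The authors deposited normalized log2 values, from 2.64 to 15.21, for 45101 probe sets. The normalization method is not given in the sources used here, and the 2 tissues' values have distributions of their own. The platform annotation gives 1 symbol for 34958 probe sets, several for 932 and none for 9211. Genes were read by their brightest probe set and kept above the 30th percentile of probe set means (5.33), and were tested with limma 3.58.1 in R 4.3.3 within each tissue, two-sided, with Benjamini-Hochberg adjustment over 14548 genes and a threshold of 0.05. Interactions used all 30 arrays. Checks of other probe sets were adjusted over 31570 probe sets. Descriptions and plots used Python 3.11.15, pandas 2.3.3 and matplotlib 3.10.9.

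Errors are SD for group means and SE for differences. The members, the 17 gene lists and the tests were chosen with earlier results of these data known. Genes outside the 8 were named as targeted genes, as tissue markers, as up to 4 called genes of smallest p in a list, as Cdkn1a and Ccnd1, or as the 3 genes most like a member. Klf3 and Klf15 were named outside these rules, as other KLF factors that did not pass. Tested on simulated data of 14548 genes, the fit of Rb KO against control recovered 75% to 89% of genes changed 1.5-fold in villi and 84% to 94% in crypts over 10 draws. Each draw changed 100 genes 1.5-fold and 100 genes 2-fold, with noise drawn for each gene alone. In the data 30.5% of all genes passed in Rb KO villi, so these shares need not hold there. Within a genotype, the villus and the crypt array of 1 number moved alike (correlation 0.246 to 0.560 in 15 of 15), and were taken as 1 animal. Arrays of 1 number in different genotypes were less alike. In villi their correlation ran from -0.197 to 0.419 (median 0.18), with the same number the best match in 7 of 15. In crypts it ran from -0.274 to 0.404 (median -0.009), with 4 of 15. Genotypes were not paired in the main fit, and the replicate number as a block was an alternative. Alternatives covered probe set choice, filter, normalization, fit, covariates, thresholds and omitted arrays.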

Additional observations from a re-analysis of the deposited data

How the results depend on the processing

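Of 64 differences of the 8 factors, 47 kept their side of the threshold in every alternative and 17 crossed it in at least 1. The numbers of factors called were 1, 0 and 0 in villi (Rb KO against control, DKO against Rb KO, DKO against control) and 1, 1 and 0 in crypts. With the mean of all probe sets of a gene the villus counts were 3, 1 and 2. With all 30 arrays in 1 fit they were 2 in Rb KO villi, 1 between DKO and control villi, and 0 in Rb KO crypts and between DKO and Rb KO crypts. The count between DKO and Rb KO crypts was 0 with quantile normalization, the crypt marker mean, the Gapdh reading, a threshold of 0.01 or a minimum difference of 0.5. It was 2 with only the 2 groups compared, and 3 by the exact permutation test of each gene, unadjusted. At an unadjusted limma p under 0.05 it was also 3 of 8, beside 26.4% of all genes. The count in Rb KO villi was 0 with the Gapdh reading, at 0.01 and without Rb KO 4 and 5, and 2 without controls 1 and 4. The count in Rb KO crypts was 0 with the minimum difference of 0.5. Between DKO and control the count in villi was 2 with the crypt marker mean and 1 without controls 1 and 4, and in crypts 1 with sex or the crypt marker mean as a covariate, by the exact test, and without controls 1 and 4. With the replicate number as a block, Rb KO villi gave 2 (Gata6 joined, -0.22, adjusted p = 0.0438), and it moved no other of these 6 counts by over 1.5 times; with the animal as a random block, 0 factors passed either interaction. With the immediate early gene mean as a covariate, chosen after seeing the data, the count was 2 in Rb KO villi and 0 in Rb KO crypts. Leaving out 1 array gave 0 to 2 in Rb KO villi, 0 to 1 between DKO and control villi, 0 to 1 between DKO and Rb KO crypts and 0 to 1 between DKO and control crypts. Hnf4a in Rb KO villi was reversed by its dimmest probe set (-0.65). Of the 20 probe sets, 5 fell in Rb KO villi, against 3 called without Rb KO 4 and 1 called, a higher Klf5 probe set, with the Gapdh reading, both chosen after seeing the data. The cause was not tested.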

Other observations

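Other cell types of the gut lining were read from short marker lists in the same fit, where 30.5% of all genes passed in Rb KO villi (15.8% as lower), 7.83% between DKO and Rb KO villi, 17.1% between DKO and control villi and 10.3% in Rb KO crypts. In Rb KO villi 4 of 10 enteroendocrine markers fell, Gcg, Neurod1, Chga and Scg2, and from Rb KO to DKO villi 5 of 10 rose, with Gcg, Neurod1 and Scg2 again among them. In Rb KO crypts 1 of the 10 rose and 4 fell. Of 9 lymphocyte markers, 7 fell in Rb KO villi and 5 rose from there to DKO villi, while 0 of 9 passed between DKO and control villi. Goblet cell markers gave 1 higher of 8 in Rb KO villi, Agr2, and 1 higher of 8 in Rb KO crypts, Tff3.

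Of 8 macrophage and dendritic cell markers 1 fell in Rb KO villi, Cd74, and 0 passed in Rb KO crypts. Fibroblast and smooth muscle markers (9) and endothelial markers (4) gave 0 calls in Rb KO villi and 0 in Rb KO crypts. Of 7 exocrine pancreas and liver markers 1 fell in Rb KO villi, Clps. From there to DKO villi 2 of the 7 rose, Clps and Cela1, with a median difference of 1.07 over the 7. Their mean was 0.789 ± 1.013 in DKO villi against 0 ± 0.229 in control, with single DKO arrays from -0.225 to 2.437. Of 9 circadian clock genes 1 rose in Rb KO villi, Clock, and between DKO and control villi 2 rose and 3 fell.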
